A study of Mus musculus with 15 samples.

Results

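The genes described here are regulators and transcriptional targets of the tumour suppressor p53, measured in mouse embryonic stem cells after knockdown of Tet1 or of Sin3a. A list of 37 symbols was matched to the probe sets of the array annotation, and 33 genes were found, each with 1 probe set, among the 21212 probe sets of the table. The other 4 symbols, the gene of p53 itself among them, are not analysed here. The cells were E14TG2a.4, a feeder-independent stem cell line kept with leukaemia inhibitory factor (LIF), in which lentiviral short hairpin RNAs (shRNAs) were expressed and selected with puromycin (2 µg per ml for 72 hours, from 36 hours after transduction). All 5 groups, controls included, carried such a virus and had this selection. Cells of every group were at passage 17 and kept with 15% serum. The Tet1 set held 3 arrays each of a scrambled hairpin, the hairpin Tet1#4 (Tet1 shRNA 4) and the hairpin Tet1#5 (Tet1 shRNA 5), and the Sin3A set held 3 arrays of its own scrambled hairpin and 3 of 1 Sin3A hairpin. Each array measured a whole population of cells, so fewer cells that express a gene and less RNA per cell cannot be told apart. Whether the 3 arrays of a group stem from separate cultures is not stated, so the p-values reflect no more than the spread among these arrays, and it may be technical.

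p53 is a transcription factor that is kept scarce by the ubiquitin ligase Mdm2, itself encoded by a p53 target gene, and that accumulates after DNA damage and other stress. Its targets stop the cell cycle, start apoptosis, repair DNA, adjust metabolism and switch p53 off again, and in embryonic stem cells p53 is also known to favour differentiation over self-renewal. Tet1 is the gene of an enzyme that oxidises 5-methylcytosine, and Sin3a is that of the scaffold on which a corepressor complex with histone deacetylases assembles. p53 binds DNA as a tetramer on a pair of 10-base arms, and each arm follows the same consensus.

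The promoters of the members were searched for this 10-base p53 consensus arm, which reads the same on both strands, in RefSeq windows (GRCm38.p6) from 250 bases before to 50 bases after each start site. Windows were listed for 25 of the 33 members. At least 1 exact arm lay in 12 of the 34 member windows (35.3%), against 2745 of all 32851 windows (8.36%), and it was found for 11 members: Aen, Ccng1, Cdkn1a, Ddit4l, Ei24, Gtse1, Mdm2, Polk, Ppm1d, Rps27l and Sesn1. A match is a run of letters and not a measured binding site. A pair of arms at most 13 bases apart was found in 1 member window, upstream of Cdkn1a, and in 24 of all windows (0.0731%). The 250 bases before the start site are shown, 5′ to 3′, for Cdkn1a, whose window holds the pair. Those of Mdm2, the main brake on p53, follow, and then those of Ccng1 and Ddit4l. Ccng1 and Ddit4l fell with Tet1 shRNA 4, not passing with Tet1 shRNA 5, and rose with the Sin3A shRNA. The rise of Ccng1 and the fall of Ddit4l were each lost without any 1 array of the set. Aen, which has an arm and passed in the same directions, is not shown. Plk2, Eda2r and Dcxr also fell with Tet1 shRNA 4 and rose with the Sin3A shRNA, and their windows held no exact arm. Capitals mark the matches.
Cdkn1a, chr17:29090729-29090978, plus strand: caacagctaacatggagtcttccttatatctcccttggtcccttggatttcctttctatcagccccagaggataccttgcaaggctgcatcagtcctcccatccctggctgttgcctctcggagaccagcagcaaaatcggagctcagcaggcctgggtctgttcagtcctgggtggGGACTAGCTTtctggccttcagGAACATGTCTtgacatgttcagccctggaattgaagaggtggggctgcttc
Mdm2, chr10:117710759-117711008, minus strand: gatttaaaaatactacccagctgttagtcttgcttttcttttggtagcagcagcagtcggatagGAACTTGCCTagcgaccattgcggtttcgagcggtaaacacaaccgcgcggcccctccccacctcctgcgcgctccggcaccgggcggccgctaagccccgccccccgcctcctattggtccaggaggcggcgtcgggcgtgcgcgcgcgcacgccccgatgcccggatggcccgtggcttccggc
Ccng1, chr11:40755287-40755536, minus strand: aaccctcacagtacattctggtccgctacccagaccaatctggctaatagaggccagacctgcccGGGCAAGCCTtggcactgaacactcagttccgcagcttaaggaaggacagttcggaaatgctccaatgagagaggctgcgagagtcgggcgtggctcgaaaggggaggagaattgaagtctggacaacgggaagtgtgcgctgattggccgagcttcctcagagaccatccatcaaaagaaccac
Ddit4l, chr3:137623422-137623671, plus strand: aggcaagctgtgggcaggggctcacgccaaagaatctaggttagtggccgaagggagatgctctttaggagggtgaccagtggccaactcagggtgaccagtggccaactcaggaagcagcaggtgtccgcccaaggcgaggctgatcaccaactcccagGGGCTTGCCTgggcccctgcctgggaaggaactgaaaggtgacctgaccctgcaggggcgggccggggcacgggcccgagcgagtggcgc
The matches begin 73 and 51 bases before this start site of Cdkn1a, 186 before that of Mdm2, 185 before that of Ccng1 and 90 before that of Ddit4l. A second listed start site of Cdkn1a had no match in its window.

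The knockdowns were seen in the targeted transcripts. The Tet1 probe set was 3.43-fold lower with Tet1 shRNA 4 and 4.30-fold lower with Tet1 shRNA 5, and the Sin3a probe set was 2.93-fold lower with the Sin3A shRNA (limma adjusted p = 2.08e-06, 1.51e-06 and 1.28e-05). The Sin3a probe set was also lower with the Tet1 shRNAs (log2 differences of -0.27 and -0.24, adjusted p = 0.0147 and 0.0219, each lost without some single arrays), and the Tet1 probe set was higher with the Sin3A shRNA (0.31, adjusted p = 0.00679). All 11 markers of embryonic stem cells lay above the median probe set in each of the 5 groups, while 2 to 4 of 9 fibroblast markers, 1 or 2 of 7 primitive endoderm markers and 1 of 5 trophectoderm markers did. The mean log2 level of an array over the stem cell markers was 11.71 to 11.78 with the scrambled hairpin of the Tet1 set and did not overlap with the 11.80 to 11.83 of Tet1 shRNA 4, while that of Tet1 shRNA 5 was 11.75 to 11.78. Of these 11 markers 2 rose and 1 fell with both Tet1 hairpins, where 5.4% of all probe sets rose and 3.4% fell with both. With the Sin3A shRNA Klf4 rose (0.41, limma adjusted p = 0.00079) and Nanog fell (-0.27, 0.00976), and the other stem cell markers did not pass. Over all probe sets 12.2% rose and 12.6% fell there. The mean log2 level of an array over the 9 fibroblast markers was 6.02 to 6.18 with the scrambled hairpin of the Tet1 set, 6.12 to 6.25 with Tet1 shRNA 4 and 6.09 to 6.22 with Tet1 shRNA 5, which overlap. Of the fibroblast markers Thy1, a surface glycoprotein gene, rose with both Tet1 hairpins (0.82 and 0.81, adjusted p = 0.000107 and 0.000113), and the other 8 did not pass with either. The fibroblast mean was 7.21 to 7.27 in the scrambled arrays and 7.05 to 7.21 in the Sin3A arrays of the other set, where the means over primitive endoderm markers (7.26 to 7.33 and 7.18 to 7.22) and trophectoderm markers (7.25 to 7.30 and 7.12 to 7.19) did not overlap and were lower with the Sin3A shRNA. Of the 7 primitive endoderm markers only Dab2 passed with the Sin3A shRNA (-0.86, limma adjusted p = 0.0021). Their median log2 difference was 0.0057, and 4 were positive. Of the 5 trophectoderm markers 4 were negative, and 1, Plac1, passed (-0.27, adjusted p = 0.021). The part of these other cell types in the results was not tested. Levels are compared only within a set, since the mean over all probe sets was 7.08 to 7.11 in arrays of the Tet1 set and 8.09 in those of the Sin3A set. Scrambled replicate 2 and Tet1 shRNA 4 replicate 2 of the Tet1 set deviated from their groups together (r = 0.517 over the probe sets, which do not count as independent replicates), and counts for the Tet1 set are therefore also given without both arrays. In the Tet1 set 10 of the 33 members had the same deposited value in at least 2 of the 9 arrays, which can narrow the spread between them, and in the Sin3A set 0 had.

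Most members that passed with a Tet1 hairpin were lower, and most that passed with the Sin3A shRNA were higher. These were only in part the same genes. With Tet1 shRNA 4, 12 of the 33 members fell (36.4%) and 2 rose (6.06%), where 4.71% of all probe sets fell and 6.88% rose at a limma adjusted p under 0.05, 11.6% in either direction. With Tet1 shRNA 5, 6 members fell (18.2%) and 2 rose (6.06%), against 5.46% and 8.37% of all probe sets, 13.8% in either direction. With the Sin3A shRNA 21 members rose (63.6%) and 1 fell (3.03%), against 12.2% and 12.6% of all probe sets, 24.8% in either direction. The median log2 difference of the members was -0.18 with Tet1 shRNA 4, -0.043 with Tet1 shRNA 5 and 0.17 with the Sin3A shRNA, and over all probe sets it was -0.0032, -0.0044 and 0.0063. Both Tet1 comparisons share their 3 scrambled arrays, and the Sin3A comparison has its own. Of the members, 4 fell and 2 rose with both Tet1 shRNAs, where 3.4% of all probe sets fell and 5.4% rose with both (8.81% in either direction).

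Changes of the members were modest in size. The log2 differences ran from -0.73 for Plk2 to 1.08 for Sesn1 with Tet1 shRNA 4, from -0.39 for Polk to 1.25 for Sesn1 with Tet1 shRNA 5 and from -0.30 for Ddb2 to 0.83 for Perp with the Sin3A shRNA. Without both arrays that stood apart, 12 members fell and 2 rose with Tet1 shRNA 4, and 7 fell and 2 rose with Tet1 shRNA 5. Over all probe sets 11.6% and 16.2% then passed in either direction. The count for the Sin3A shRNA rested on each of its 6 arrays: 11, 12 and 14 members passed without scrambled replicate 1, 2 or 3, and 13, 12 and 12 without Sin3A replicate 1, 2 or 3. These are 33.3%, 36.4%, 42.4%, 39.4%, 36.4% and 36.4% of the members, against 66.7% with all arrays. The share of all probe sets that passed fell as well, from 24.8% with all arrays to 17.1%, 20.3%, 19.5%, 23.3%, 15.8% and 19.9% in the same order. The 11 members that passed whichever array was left out were Plk2, Sesn1, Ddit4l, Apaf1, Perp, Zmat3, Ei24, Aen, Ercc5, Dcxr and Epha2, all higher with the Sin3A shRNA.

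**Figure D1:**
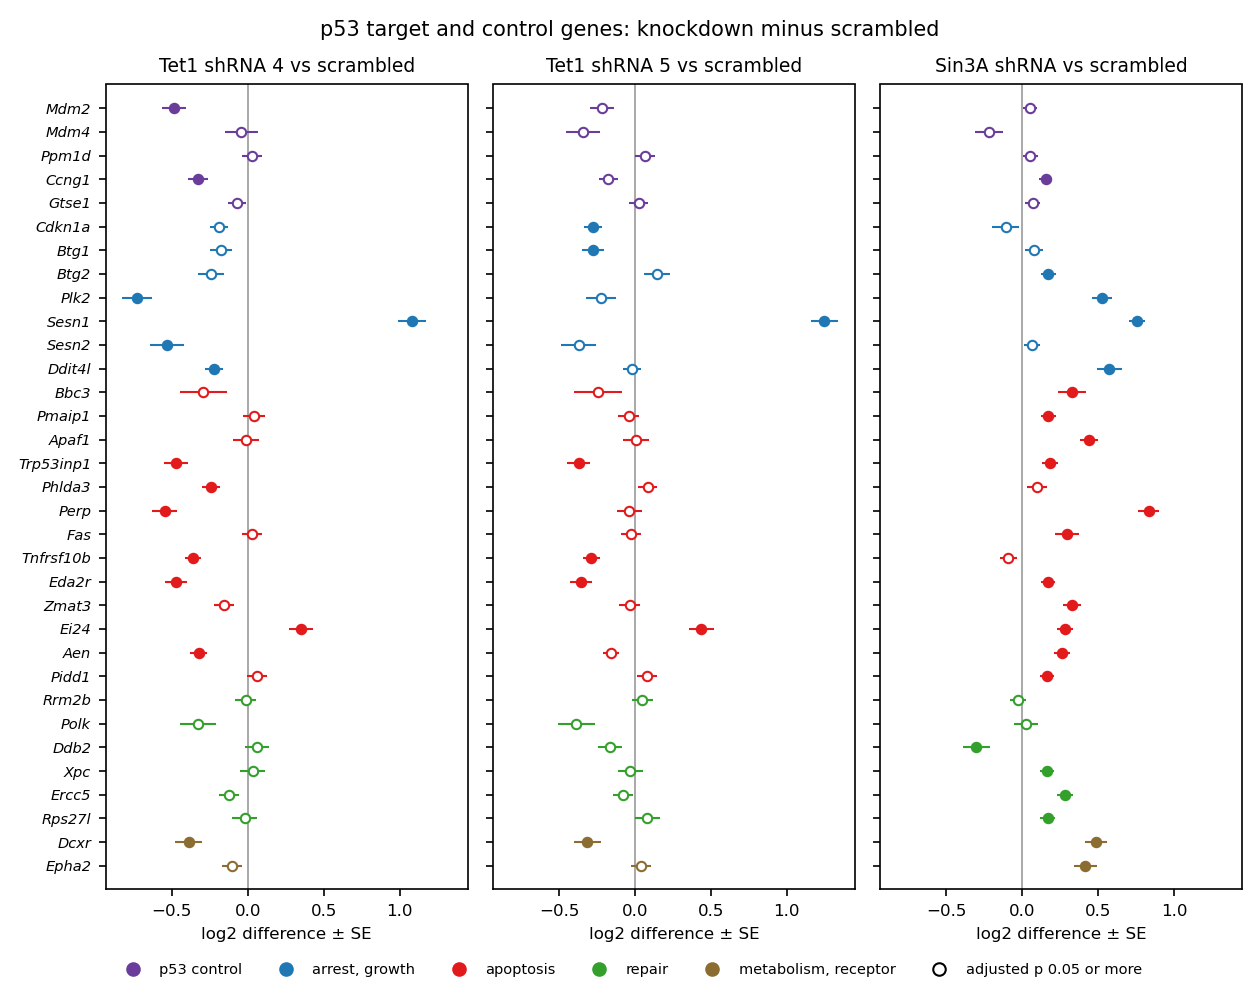
Log2 difference (knockdown minus scrambled, ± SE, 3 arrays per group) of each of the 33 members on the horizontal axes, 1 panel per hairpin, coloured by role, with open symbols for an adjusted p of 0.05 or more. Filled symbols lie mostly left of 0 with Tet1 shRNA 4 (12 lower, 2 higher) and right of 0 with the Sin3A shRNA (21 higher, 1 lower), and Sesn1 lies right of 0 in every panel.

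**Figure D2:**
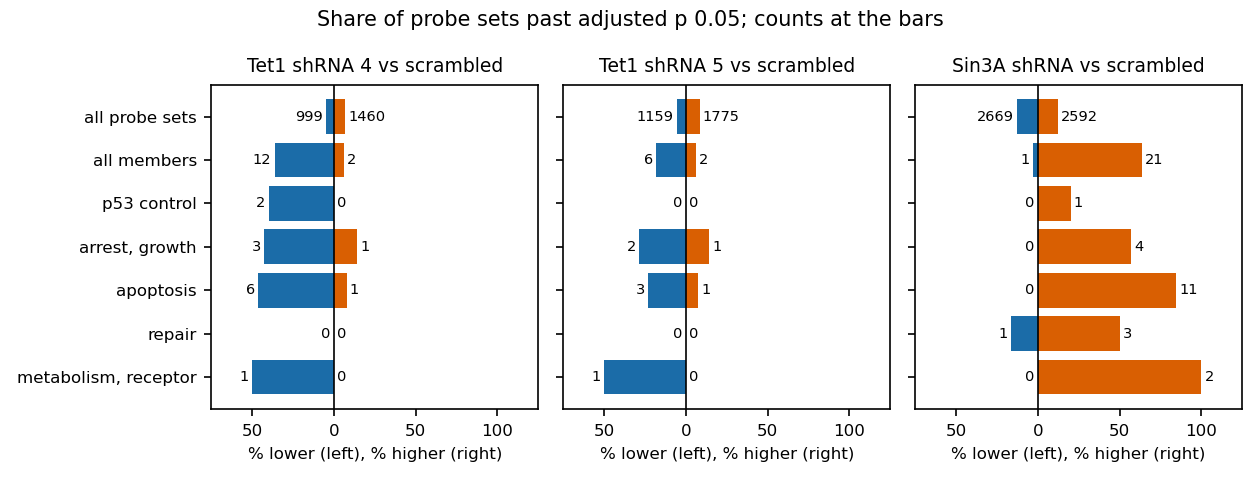
Percent of probe sets that passed an adjusted p of 0.05, lower to the left and higher to the right, with counts at the bars, for all 21212 probe sets, for the 33 members and for each role. The bars of apoptosis genes reach 46.2% lower with Tet1 shRNA 4 and 84.6% higher with the Sin3A shRNA. Of the 6 repair genes 0 passed with either Tet1 shRNA, where 11.6% and 13.8% of all probe sets passed.

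Of the 5 measured genes that control p53 or feed back on it, 2 fell with Tet1 shRNA 4 and 1 rose with the Sin3A shRNA, while 0 passed in limma with Tet1 shRNA 5 (3 lower and 0 higher at an unadjusted p under 0.05). Mdm2, which encodes the ligase that marks p53 for degradation, had log2 levels of 10.40, 10.12 and 10.18 with the scrambled hairpin, 9.79, 9.79 and 9.67 with Tet1 shRNA 4 and 10.01, 10.01 and 10.04 with Tet1 shRNA 5. All 6 knockdown arrays lay below the 3 scrambled ones, and those of shRNA 4 lay lowest. Mdm2 fell 1.40-fold with shRNA 4 (log2 difference -0.49 ± 0.08, SE, adjusted p = 0.00313), and with shRNA 5 its difference of -0.22 ± 0.08 did not pass (adjusted p = 0.109). Mdm2 in the Sin3A set stood at 11.34, 11.31 and 11.28 in the scrambled and 11.38, 11.36 and 11.34 in the Sin3A arrays, a difference of 0.05 ± 0.05 that did not pass (adjusted p = 0.497).

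Ccng1 encodes cyclin G1, which recruits a phosphatase that acts on Mdm2. Its log2 levels were 12.29, 12.14 and 12.16 with the scrambled hairpin, 11.87, 11.78 and 11.94 with Tet1 shRNA 4 and 12.03, 12.02 and 12.01 with Tet1 shRNA 5. It fell with shRNA 4 (-0.33 ± 0.07, SE, adjusted p = 0.00962), and with shRNA 5 the difference of -0.17 ± 0.07 did not pass (adjusted p = 0.119), although the arrays of both hairpins lay below all scrambled arrays. In the Sin3A set the 3 scrambled arrays lay at 12.64 and the Sin3A arrays at 12.80, 12.79 and 12.79, and Ccng1 rose by 0.15 ± 0.04 (adjusted p = 0.0398). That call was lost without any 1 of the 6 arrays (adjusted p = 0.0734 to 0.126).

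The other genes of this role did not pass in the main fit of any of the 3 comparisons. Mdm4, the non-catalytic relative of Mdm2, had log2 differences of -0.04, -0.34 and -0.22 for Tet1 shRNA 4, Tet1 shRNA 5 and the Sin3A shRNA, and it passed with shRNA 5 without scrambled replicate 2 (adjusted p = 0.00976) and with the Sin3A shRNA without Sin3A replicate 3 (0.0444). With shRNA 5 it also passed without both arrays that stood apart (0.00241) and after a repeated quantile normalization (0.0224). The replicate block (0.0465) and 1 fit of all 15 arrays (0.0405) gave the same call. Ppm1d, the phosphatase Wip1 that reverses damage signalling, had 0.03, 0.07 and 0.05. Gtse1, a microtubule-associated protein that restrains p53 in G2, had -0.07, 0.02 and 0.07.

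Among 7 genes of cell cycle arrest and growth control, 3 fell and 1 rose with Tet1 shRNA 4, 2 fell and 1 rose with Tet1 shRNA 5, and 4 rose and 0 fell with the Sin3A shRNA (0 lower at an unadjusted p under 0.05). Cdkn1a encodes the cyclin-dependent kinase inhibitor p21, the main effector of p53-dependent arrest. It had log2 levels of 9.55, 9.67 and 9.60 with the scrambled hairpin, 9.44, 9.43 and 9.38 with Tet1 shRNA 4 and 9.29, 9.39 and 9.31 with Tet1 shRNA 5. The knockdown arrays all lay below the scrambled ones. Cdkn1a fell with shRNA 5 (-0.28 ± 0.06, SE, adjusted p = 0.0113), and its difference of -0.19 ± 0.06 with shRNA 4 did not pass (adjusted p = 0.0666). In the Sin3A set the levels of 10.90, 10.87 and 10.80 (scrambled) and 10.91, 10.80 and 10.56 (Sin3A) overlapped, and the difference of -0.11 ± 0.09 did not pass (adjusted p = 0.44). Cdkn1a, whose promoter window holds the paired arms shown above, was not among the members that rose with the Sin3A shRNA.

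Plk2, a polo-like kinase induced in p53-dependent arrest, showed the largest fall of any member with Tet1 shRNA 4. Its log2 levels were 7.99, 7.93 and 8.02 with the scrambled hairpin, 7.18, 7.07 and 7.50 with shRNA 4 and 7.74, 7.78 and 7.74 with shRNA 5. No arrays of these 3 groups overlapped. The fall with shRNA 4 was 1.66-fold (-0.73 ± 0.10, SE, adjusted p = 0.00112), and with shRNA 5 the difference of -0.23 ± 0.10 did not pass (adjusted p = 0.182, and 0.039 without replicate 3 of shRNA 4). Plk2 rose 1.44-fold with the Sin3A shRNA, from 9.15, 9.33 and 9.29 to 9.70, 9.80 and 9.85 (0.53 ± 0.07, adjusted p = 0.00108).

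The sestrin genes Sesn1 and Sesn2 encode stress-induced proteins that restrain the growth regulator mTORC1, and they moved apart after Tet1 knockdown. Sesn1 had log2 levels of 7.84, 7.76 and 8.06 with the scrambled hairpin, 9.02, 8.98 and 8.91 with Tet1 shRNA 4 and 8.99, 9.20 and 9.22 with Tet1 shRNA 5, so every knockdown array exceeded every control. It rose 2.12-fold with shRNA 4 and 2.38-fold with shRNA 5 (adjusted p = 8.18e-05 and 4.28e-05). Sesn1 also rose 1.69-fold, from 9.19, 9.16 and 9.12 in the scrambled arrays of the Sin3A set to 9.85, 9.97 and 9.92 (0.76 ± 0.05, SE, adjusted p = 0.000109). It was the member with the largest rise in each Tet1 comparison.

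Sesn2 instead had levels of 10.74, 11.02 and 10.80 with the scrambled hairpin, 10.34, 10.54 and 10.09 with Tet1 shRNA 4 and 10.48, 10.55 and 10.42 with Tet1 shRNA 5. The knockdown arrays of both hairpins lay below all controls. Sesn2 fell with shRNA 4 (-0.53 ± 0.11, SE, adjusted p = 0.0143), and with shRNA 5 the difference of -0.37 ± 0.11 did not pass (adjusted p = 0.0619). The latter passed without replicate 2 or replicate 3 of shRNA 4 (adjusted p = 0.0342 and 0.0305). The shRNA 5 difference also passed after median centring (0.047), with the replicate block (0.0225) and with an intensity trend in the prior variance (0.0465). The 2 compared groups alone (0.0362), 1 fit of all 15 arrays (0.0135) and leaving out dim probe sets (0.0423) gave the same call. This difference did not pass after a repeated quantile normalization or without both arrays that stood apart. The shRNA 4 call was lost with only the 2 compared groups (0.0525). In the Sin3A set Sesn2 lay at 11.37, 11.31 and 11.34 (scrambled) and 11.37, 11.39 and 11.45 (Sin3A), a difference of 0.06 ± 0.05 that did not pass (adjusted p = 0.406).

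Ddit4l encodes another inhibitor of mTORC1 signalling. Levels on the log2 scale were 7.90, 7.91 and 7.83 with the scrambled hairpin, 7.59, 7.68 and 7.70 with Tet1 shRNA 4 and 7.83, 7.92 and 7.83 with Tet1 shRNA 5. The arrays of shRNA 4 lay below all controls and those of shRNA 5 overlapped them. The fall with shRNA 4 (-0.22 ± 0.06, SE, adjusted p = 0.0408) was lost without any 1 of the 9 arrays of the set (adjusted p = 0.0554 to 0.153) and with the replicate number as a block (0.0671). Ddit4l rose 1.49-fold with the Sin3A shRNA, from 8.90, 8.83 and 9.15 to 9.57, 9.48 and 9.55 (0.58 ± 0.09, adjusted p = 0.00237).

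Btg1 and Btg2 encode antiproliferative proteins that work with the messenger RNA deadenylation machinery. Btg1 had log2 levels of 10.10, 10.27 and 10.18 with the scrambled hairpin, 10.02, 10.11 and 9.89 with Tet1 shRNA 4 and 9.84, 9.93 and 9.94 with Tet1 shRNA 5. Only the arrays of shRNA 5 lay below all controls, and there Btg1 fell by 0.28 on the log2 scale (adjusted p = 0.0325). That call was lost without scrambled replicate 2 or 3, without replicate 1 of shRNA 4 and without any 1 of the shRNA 5 arrays (adjusted p = 0.0538 to 0.116). The Sin3A set gave 11.37, 11.35 and 11.40 (scrambled) and 11.55, 11.38 and 11.44 (Sin3A) for Btg1, a difference of 0.08 ± 0.06 that did not pass. Btg2 had differences of -0.24 and 0.14 with the Tet1 hairpins, neither of which passed (with shRNA 4 it passed without replicate 3 of that hairpin, adjusted p = 0.0226), and it rose by 0.17 ± 0.05 with the Sin3A shRNA (adjusted p = 0.0364). The Btg2 call for Sin3A was lost without any 1 of the 6 arrays (adjusted p = 0.0612 to 0.108).

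Apoptosis genes made up the largest role, with 13 measured members. With Tet1 shRNA 4, 6 fell and 1 rose, with Tet1 shRNA 5, 3 fell and 1 rose, and with the Sin3A shRNA 11 rose and 0 fell (0 lower at an unadjusted p under 0.05). Their median log2 difference was -0.24, -0.039 and 0.26 in these comparisons. The members act at different steps: death receptors at the surface, BH3-only proteins and the apoptosome around mitochondria, and nuclear or membrane effectors.

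Among the death receptors, Tnfrsf10b encodes the mouse receptor for the ligand TRAIL. Its log2 levels were 9.57, 9.52 and 9.60 with the scrambled hairpin, 9.23, 9.15 and 9.22 with Tet1 shRNA 4 and 9.24, 9.29 and 9.30 with Tet1 shRNA 5. All knockdown arrays lay below the controls, and Tnfrsf10b fell 1.28-fold and 1.22-fold (adjusted p = 0.00233 and 0.00721). It did not rise with the Sin3A shRNA, where levels of 10.62, 10.63 and 10.66 (scrambled) and 10.49, 10.65 and 10.50 (Sin3A) overlapped (-0.09 ± 0.06, SE, adjusted p = 0.314).

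Eda2r, the receptor of ectodysplasin A2, moved in both directions. Log2 levels of Eda2r were 9.53, 9.29 and 9.48 with the scrambled hairpin, 8.98, 8.91 and 8.99 with Tet1 shRNA 4 and 9.10, 9.05 and 9.09 with Tet1 shRNA 5. The knockdown arrays again lay below all controls, with falls of 1.39-fold and 1.28-fold (adjusted p = 0.0021 and 0.00879). Eda2r rose with the Sin3A shRNA from 10.29, 10.35 and 10.33 to 10.51, 10.47 and 10.50 (0.17 ± 0.05, SE, adjusted p = 0.0339), a call lost without any 1 of the 6 arrays (adjusted p = 0.0605 to 0.118). Fas, the receptor of Fas ligand, had a low signal, at the 11.1 percentile of probe sets in the scrambled arrays of the Tet1 set and the 12.1 percentile in those of the Sin3A set. Its differences with the Tet1 hairpins were 0.03 and -0.02, and its rise of 0.30 ± 0.08 with the Sin3A shRNA (adjusted p = 0.0271) did not pass once scrambled replicate 1, scrambled replicate 2 or Sin3A replicate 3 was left out (adjusted p = 0.0565 to 0.0909).

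Bbc3, Pmaip1 and Apaf1, which act at or downstream of mitochondria, did not pass with either Tet1 hairpin. Bbc3 encodes Puma, a BH3-only protein that neutralises survival proteins of the Bcl2 family. Its log2 levels were 7.11, 7.75 and 7.11 with the scrambled hairpin, 6.88, 7.11 and 7.11 with Tet1 shRNA 4 and 7.11, 7.01 and 7.12 with Tet1 shRNA 5, with several values tied. Scrambled replicate 2 lay above the other 8 arrays, and the differences of -0.29 and -0.24 did not pass (adjusted p = 0.316 and 0.394). Bbc3 rose with the Sin3A shRNA from 8.65, 8.56 and 8.90 to 9.11, 8.995 and 8.998 (0.33 ± 0.09, SE, adjusted p = 0.0316), and the call held only without scrambled replicate 3 when 1 array was left out (adjusted p = 0.0597 to 0.1 without any other).

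Apaf1 encodes the scaffold of the apoptosome, which activates caspase-9. It had log2 levels of 8.93, 8.66 and 8.91 with the scrambled hairpin, 8.83, 8.71 and 8.92 with Tet1 shRNA 4 and 8.83, 8.83 and 8.85 with Tet1 shRNA 5, so all 3 groups overlapped. In the Sin3A set it rose 1.36-fold, from 9.90, 10.01 and 9.90 to 10.38, 10.33 and 10.43 (0.44 ± 0.06, SE, adjusted p = 0.00125). Pmaip1, which encodes the BH3-only protein Noxa, had differences of 0.04 and -0.04 with the Tet1 hairpins and rose by 0.17 ± 0.05 with the Sin3A shRNA (adjusted p = 0.0432). The Pmaip1 call was lost without any 1 array except Sin3A replicate 1 (adjusted p = 0.0756 to 0.166). Pidd1, a component of a complex that activates caspase-2, had differences of 0.06 and 0.08 and rose by 0.16 with the Sin3A shRNA (adjusted p = 0.036, and 0.0622 to 0.131 without any 1 array).

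Perp, a tetraspan membrane protein of desmosomes and an effector of p53-dependent death, showed the largest rise of any member with the Sin3A shRNA. Its levels went from 10.21, 10.10 and 10.35 to 10.995, 11.09 and 11.07, a 1.78-fold rise (0.83 ± 0.07, SE, adjusted p = 0.000226). In the Tet1 set it had log2 levels of 9.25, 9.28 and 9.07 with the scrambled hairpin, 8.59, 8.57 and 8.79 with shRNA 4 and 9.17, 9.22 and 9.08 with shRNA 5. The arrays of shRNA 4 lay below all controls, and Perp fell 1.46-fold there (adjusted p = 0.00215). Those of shRNA 5 overlapped the controls (-0.04 ± 0.08, adjusted p = 0.837).

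Trp53inp1 encodes a nuclear protein that promotes p53 phosphorylation and autophagy. Log2 levels were 11.20, 10.92 and 11.02 with the scrambled hairpin, 10.61, 10.48 and 10.63 with Tet1 shRNA 4 and 10.65, 10.68 and 10.70 with Tet1 shRNA 5. Both hairpins lay below all controls, and Trp53inp1 fell 1.39-fold and 1.29-fold (adjusted p = 0.00362 and 0.0113). With the Sin3A shRNA it rose from 11.89, 11.95 and 11.85 to 12.06, 12.07 and 12.11 (0.18 ± 0.05, SE, adjusted p = 0.0335). That rise was lost without any 1 array except scrambled replicate 2 (adjusted p = 0.052 to 0.1).

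Aen encodes a nuclease that takes part in apoptotic DNA breakdown. Its log2 levels were 8.38, 8.43 and 8.49 with the scrambled hairpin, 8.13, 8.10 and 8.09 with Tet1 shRNA 4 and 8.26, 8.26 and 8.29 with Tet1 shRNA 5, with no overlap between the 3 groups. It fell with shRNA 4 (-0.32 ± 0.05, SE, adjusted p = 0.00381), and with shRNA 5 the difference of -0.16 ± 0.05 did not pass (adjusted p = 0.0882). Aen rose in the Sin3A set from 9.37, 9.41 and 9.40 to 9.60, 9.62 and 9.74 (0.26 ± 0.06, adjusted p = 0.0109).

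Zmat3 encodes a zinc-finger protein that binds RNA. Its log2 levels were 9.26, 9.13 and 9.21 with the scrambled hairpin, 9.06, 8.95 and 9.12 with Tet1 shRNA 4 and 9.14, 9.14 and 9.22 with Tet1 shRNA 5, and neither difference passed (-0.16 and -0.04). It rose 1.26-fold with the Sin3A shRNA, from 9.98, 9.88 and 9.87 to 10.15, 10.28 and 10.28 (0.33 ± 0.06, SE, adjusted p = 0.00613). Phlda3, which encodes a repressor of the survival kinase Akt, fell with shRNA 4 by 0.24 on the log2 scale (adjusted p = 0.03) and did not pass with shRNA 5 or the Sin3A shRNA (0.08 and 0.10). The Phlda3 call was lost without scrambled replicate 1 or 3, without replicate 1 or 3 of shRNA 4 and without replicate 2 of shRNA 5 (adjusted p = 0.051 to 0.114), and with the replicate block (0.0591).

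Ei24, an endoplasmic reticulum membrane protein with a part in autophagy, rose in all 3 knockdowns. It had log2 levels of 11.06, 10.89 and 11.05 with the scrambled hairpin, 11.44, 11.21 and 11.39 with Tet1 shRNA 4 and 11.39, 11.52 and 11.39 with Tet1 shRNA 5, every knockdown array above every control. The rises were 1.28-fold and 1.35-fold (adjusted p = 0.0205 and 0.00599), and the first was lost without scrambled replicate 2 or without replicate 1 or 3 of shRNA 4 (adjusted p = 0.051, 0.0855 and 0.0751). In the Sin3A set Ei24 rose 1.22-fold, from 11.54, 11.57 and 11.46 to 11.76, 11.80 and 11.85 (adjusted p = 0.00716).

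Of the 6 measured genes of DNA repair and nucleotide supply, 0 passed in limma with either Tet1 hairpin (1 lower and 0 higher at an unadjusted p under 0.05 in each). Over all probe sets 11.6% and 13.8% passed, so a count of 0 among 6 genes does not set this role apart. With the Sin3A shRNA 3 rose and 1 fell. Ercc5 encodes the endonuclease Xpg, which cuts on 1 side of a lesion in nucleotide excision repair. It had log2 levels of 8.27, 8.21 and 8.26 with the scrambled hairpin, 8.14, 8.02 and 8.21 with Tet1 shRNA 4 and 8.20, 8.21 and 8.09 with Tet1 shRNA 5, overlapping in part (-0.12 and -0.08). With the Sin3A shRNA it rose from 9.20, 9.30 and 9.25 to 9.53, 9.49 and 9.58 (0.28 ± 0.05, SE, adjusted p = 0.00634), with no overlap.

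The damage-recognition genes Xpc and Ddb2 moved apart in the Sin3A set. Xpc rose by 0.16 ± 0.05 (SE, adjusted p = 0.0406), while Ddb2 fell by 0.30 on the log2 scale (adjusted p = 0.0406) as the only member that fell there. The Xpc call was lost without any 1 of the 6 arrays (adjusted p = 0.0597 to 0.134), and that of Ddb2 without any 1 except scrambled replicate 3 (0.0597 to 0.107). Rps27l, a ribosomal protein paralogue, rose by 0.17 ± 0.05 (adjusted p = 0.0409), a call also lost without any 1 array (0.0515 to 0.161). With the Tet1 hairpins these genes had differences of 0.03 and -0.03 (Xpc), 0.06 and -0.16 (Ddb2) and -0.02 and 0.08 (Rps27l).

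Rrm2b, the p53-inducible subunit of ribonucleotide reductase, did not pass anywhere (-0.01, 0.05 and -0.03). Polk, a polymerase that copies past DNA lesions, had differences of -0.33 and -0.39 with the Tet1 hairpins, which did not pass (adjusted p = 0.126 and 0.0638). Its scrambled arrays lay at 8.22, 7.74 and 8.14 and the 6 knockdown arrays between 7.48 and 7.74, with scrambled replicate 2 well below the other controls. Polk passed with both hairpins without that array (adjusted p = 0.00898 and 0.00475) and without both arrays that stood apart (0.0258 and 0.00764). With shRNA 5 it also passed with all arrays after a repeated quantile normalization (0.0312), without the 25% of probe sets with the lowest signal (0.0436) and in 1 fit of all 15 arrays (0.0232). With the Sin3A shRNA its difference was 0.03.

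The remaining members were Dcxr, a reductase of sugars and dicarbonyls, and Epha2, a receptor tyrosine kinase of ephrins, and both rose with the Sin3A shRNA. Dcxr went from 9.35, 9.30 and 9.52 to 9.95, 9.82 and 9.85, a 1.40-fold rise (0.49 ± 0.07, SE, adjusted p = 0.00215). In the Tet1 set it had log2 levels of 7.81, 8.10 and 7.94 with the scrambled hairpin, 7.62, 7.65 and 7.41 with shRNA 4 and 7.63, 7.59 and 7.69 with shRNA 5. All 6 knockdown arrays lay below the controls, with falls of 1.31-fold and 1.24-fold (adjusted p = 0.0194 and 0.0445). The first was lost without scrambled replicate 3 or replicate 3 of shRNA 4 (adjusted p = 0.0573 and 0.0691). The second was lost without scrambled replicate 2 or 3, replicate 1 of shRNA 4 or any 1 of the shRNA 5 arrays (0.0644 to 0.139) and without both arrays that stood apart (0.088).

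Epha2 had log2 levels of 10.10, 10.20 and 10.14 with the scrambled hairpin, 9.98, 10.15 and 9.99 with Tet1 shRNA 4 and 10.21, 10.21 and 10.12 with Tet1 shRNA 5, which overlapped. It rose 1.33-fold with the Sin3A shRNA, from 11.01, 10.93 and 11.03 to 11.25, 11.44 and 11.52 (0.41 ± 0.08, SE, adjusted p = 0.0059). The 3 Sin3A arrays all exceeded the controls.

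The contrast between the Tet1 hairpins asks whether they affected the members to the same extent. In limma 0 of the 33 members passed, where 0.0566% of all probe sets were higher and 0.0849% lower with shRNA 5, 0.141% in either direction (at an unadjusted p under 0.05, 8 members were higher and 2 lower with shRNA 5). The median difference of the members, shRNA 5 minus shRNA 4, was 0.086, and 25 of 33 were positive, against a median of 0.0027 and 10880 positive values among all 21212 probe sets. Perp had the largest difference (0.51 ± 0.08, SE, adjusted p = 0.0652), followed by Plk2 (0.50 ± 0.10, adjusted p = 0.124) and Btg2 (0.39 ± 0.08, adjusted p = 0.163). Plk2 passed without replicate 3 of shRNA 4 (adjusted p = 0.0499), and Perp passed in none of the fits with 1 array left out, but did without the 25% of probe sets with the lowest signal (0.0396) and with an intensity trend in the prior variance (0.0408).

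The Tet1 and Sin3A effects were then set against each other, each relative to the scrambled arrays of its own set. The mean of both Tet1 effects was lower than the Sin3A effect for 18 of the 33 members and higher for 1, where 8.71% of all probe sets were lower and 11.3% higher (20% in either direction, limma on all 15 arrays). The median difference of effects was -0.31 for the members and -0.0081 for all probe sets. By role, 9 of 13 apoptosis genes, 4 of 7 arrest genes, 2 of 5 genes that control p53, 1 of 6 repair genes and both genes of metabolism and surface reception were lower. Of the 19, 15 passed without any 1 of the 15 arrays, and Btg1, Bbc3, Fas and Tnfrsf10b did not. The set of arrays and the targeted gene cannot be told apart in this contrast, beyond the control that each set's own scrambled arrays give.

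The widest gaps were those of Perp (-1.13 ± 0.11, log2 difference of effects ± SE, adjusted p = 4.75e-06), Plk2 (-1.01 ± 0.12, adjusted p = 3.21e-05), Dcxr (-0.84 ± 0.11, adjusted p = 9.82e-05) and Ddit4l (-0.69 ± 0.10, adjusted p = 0.000155). With Tet1 shRNA 4 and the Sin3A shRNA taken singly, 8 members fell with the first and rose with the second: Ccng1, Plk2, Ddit4l, Trp53inp1, Perp, Eda2r, Aen and Dcxr. They are 24.2% of the members, where 0.721% of all probe sets fell and rose in this way. Of these 8, only Plk2, Perp and Aen kept both calls whichever array was left out. A further 11 (33.3%) passed, as rises, with the Sin3A shRNA alone of these 2, against 9.53% of all probe sets. With Tet1 shRNA 4 alone 4 (12.1%) passed as falls, namely Mdm2, Sesn2, Phlda3 and Tnfrsf10b, against 2.32%. Sesn1 and Ei24 rose in both (6.06%, against 1.97% of all probe sets), and for Sesn1 the Tet1 effect exceeded the Sin3A effect (0.41 ± 0.10, adjusted p = 0.012). Mdm2 and Sesn2, which did not pass with the Sin3A shRNA, still differed between the knockdowns (-0.40 and -0.52, adjusted p = 0.0044 and 0.00954), while Cdkn1a did not pass (-0.13 ± 0.10, adjusted p = 0.436).

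**Figure D3:**
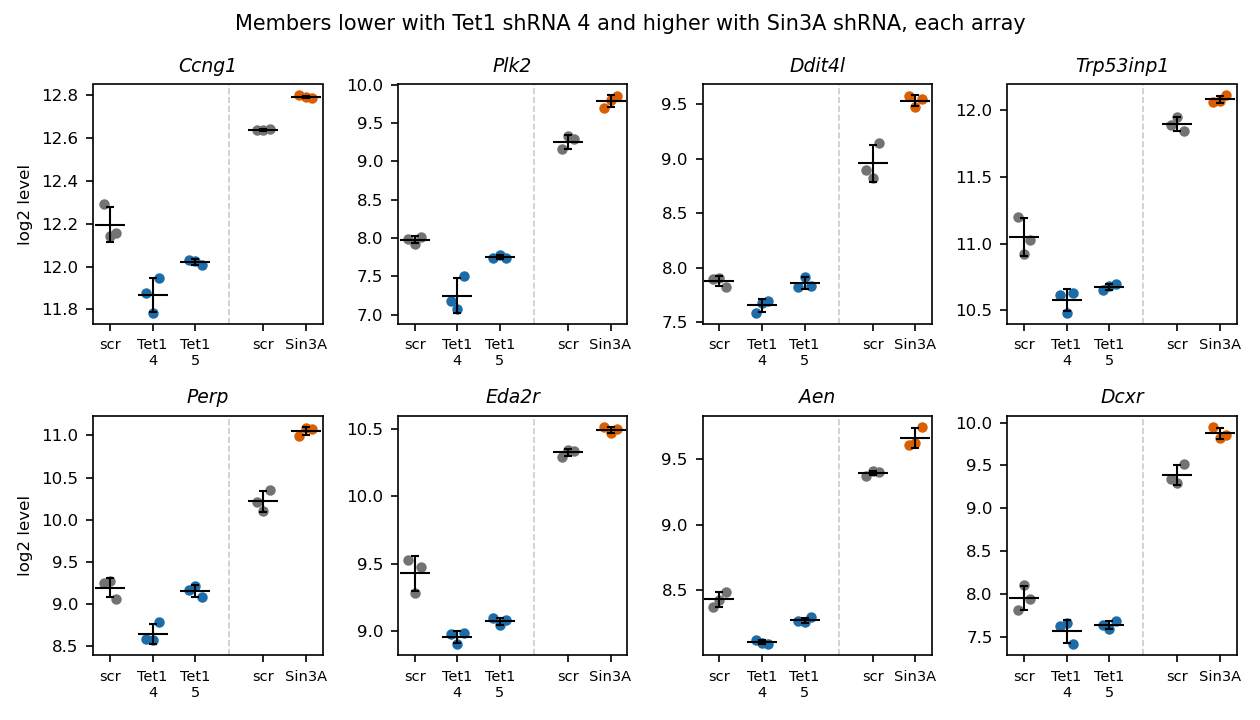
Log2 level on the vertical axis in each array (points), with group mean and SD (bars), for the 8 members that fell with Tet1 shRNA 4 and rose with the Sin3A shRNA; scr is the scrambled hairpin of each set and the dashed line separates the sets, whose levels are not compared. The 3 arrays of Tet1 shRNA 4 lie below their scrambled arrays and the 3 Sin3A arrays above theirs in all 8 panels, and for Perp and Ddit4l the arrays of Tet1 shRNA 5 overlap the controls.

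**Figure D4:**
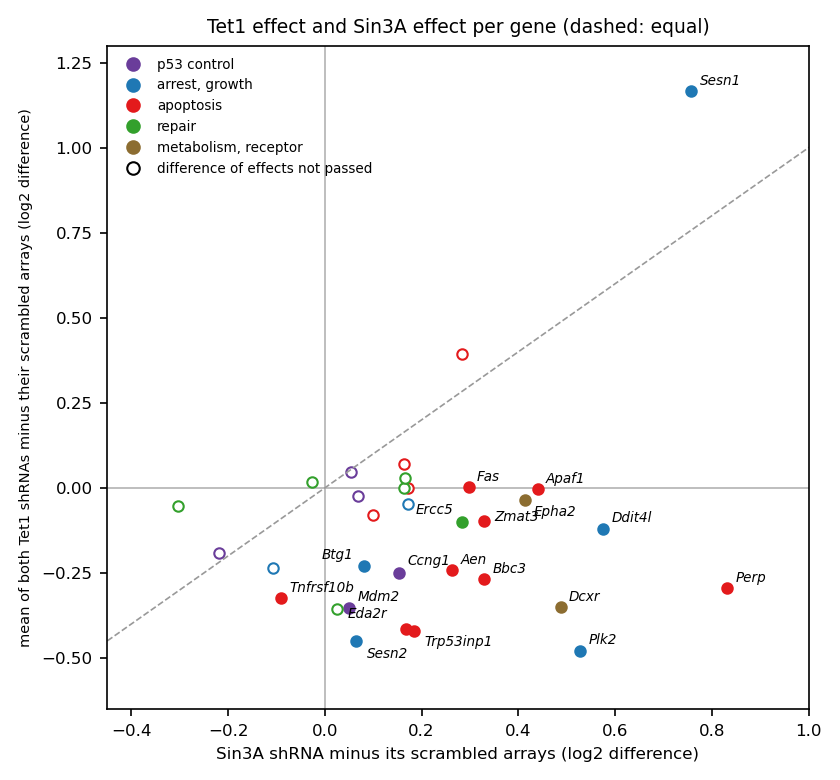
Mean log2 difference of both Tet1 shRNAs (vertical) against the log2 difference of the Sin3A shRNA (horizontal) for the 33 members, filled and named where the difference of effects passed an adjusted p of 0.05. Of the 19 filled symbols 18 lie below the dashed line of equal effects, and Sesn1 lies above it.

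Other genes of the p53 pathway, from a list of 64 symbols of which 56 were measured, passed in both directions. With Tet1 shRNA 4, 7 fell and 4 rose (19.6% in either direction, against 11.6% of all probe sets). With Tet1 shRNA 5, 7 fell and 6 rose (23.2%, against 13.8%). With the Sin3A shRNA 8 fell and 6 rose (25%, against 24.8%), which is about the share of all probe sets. With both Tet1 hairpins Casp8, the initiator caspase of death receptors, rose by 1.23 and 1.504 on the log2 scale and Steap3, an endosomal metalloreductase gene, by 0.86 and 1.12. Igfbp3, a binding protein of insulin-like growth factors, was lower by log2 differences of -0.97 and -0.70, and Sfn, the 14-3-3 protein sigma, by -0.93 and -0.53. The damage-response genes Trp53bp1 (-0.61 and -0.41) and Chek2 (-0.37 and -0.36) also fell. Bcl2, the mitochondrial survival gene, fell with both hairpins too (-0.34 and -0.34, adjusted p = 0.01 and 0.00806), and it kept both calls without any 1 array (adjusted p of 0.0478 or less). The Chek2 calls were lost without scrambled replicate 1 or 3 (adjusted p = 0.0511 to 0.0539), and that of shRNA 5 also without its replicate 1 or 3 (0.06 and 0.053).

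With the Sin3A shRNA the largest changes of this list were rises of Trp53i11, a p53-inducible gene (0.93), and Bcl2l11, which encodes the BH3-only protein Bim (0.85), and falls of Igfbp3 (-0.77), Gadd45b, a stress-response gene (-0.73), Bak1, a pore-forming protein of the mitochondrial membrane (-0.70), and Steap3 (-0.62). All 6 passed with any 1 array left out (adjusted p of 0.0045 or less). Of 11 measured cell cycle genes known to be lowered through p21, such as those of mitotic kinases, 0 passed in limma with Tet1 shRNA 4 (2 higher and 1 lower at an unadjusted p under 0.05). With Tet1 shRNA 5, 2 rose (18.2%), and with the Sin3A shRNA 1 fell (9.09%). In the same order, 11.6%, 13.8% and 24.8% of all probe sets passed in either direction.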

How the data were processed

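Total RNA from 15 samples of mouse embryonic stem cells was labelled with biotin and hybridised to Affymetrix arrays, 3 per group. The authors deposited 1 table of log2 values, 1 per probe set and array, and the submitters' processing notes name affy, RMA and limma; versions and settings are not given in the sources used here. Arrays have no read depth, and their number limits the precision.

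Deposited values were tested without further normalization. The test was limma's two-sided moderated test (version 3.58.1, in R 4.3.3), adjusted by Benjamini-Hochberg over all 21212 probe sets, and calls passed 0.05. All 9 arrays of the Tet1 set shared 1 fit and the 6 of the Sin3A set another; the difference of effects came from 1 fit of all 15 arrays. Fold changes are 2 to the power of the log2 difference. The code was tested on simulated data.

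The members and lists were chosen with earlier results of these data known. Values per array are given for Mdm2, Cdkn1a, members called with both Tet1 shRNAs, the 6 largest calls of the Sin3A shRNA, and members whose Tet1 and Sin3A effects differed and had opposite signs. Pathway genes named are the 6 largest called with both Tet1 shRNAs and the 6 largest called with the Sin3A shRNA. Polk per array, Bcl2 and Thy1 were added after their values were seen.

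Replicate numbers of the titles were not seen to pair the scrambled arrays with those of Tet1 shRNA 4, apart from replicate 2. Deviations from group means correlated at 0.27, 0.52 and 0.17 across probe sets for replicates 1, 2 and 3. Scrambled replicate 1 correlated at 0.28 with replicate 3 of shRNA 4, and scrambled replicate 3 at 0.16 with its replicate 1. Blocked values stand beside the calls of Tet1 shRNA 4 that the block changed. Alternatives covered scaling, dim probe sets, the prior variance, the arrays in the fit, the block and the threshold. Leaving out both arrays that stood apart was added after seeing the data.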

Additional observations from a re-analysis of the deposited data

Results flagged for a closer look

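For 19 members the effect of Tet1 knockdown, averaged over both hairpins, differed from that of Sin3A knockdown in limma on all 15 arrays, each effect taken against the scrambled arrays of its own set. The values are log2 differences of effects, Tet1 minus Sin3A. Among genes that control p53, Mdm2 had -0.40 and Ccng1 -0.41. Among arrest and growth genes, Plk2 had -1.01, Ddit4l -0.69, Sesn2 -0.52 and Btg1 -0.31, and Sesn1 had 0.41, the one positive value. Among apoptosis genes, Perp had -1.13, Trp53inp1 -0.61, Bbc3 -0.60, Eda2r -0.58, Aen -0.50, Apaf1 -0.44, Zmat3 -0.43, Fas -0.29 and Tnfrsf10b -0.23. Of the remaining roles, Dcxr had -0.84, Epha2 -0.45 and Ercc5 -0.38. Single arrays decided 4 of these: Fas was lost in 12 of the 15 fits with 1 array left out (adjusted p = 0.0514 to 0.128), Bbc3 in 7 (0.057 to 0.0949), Tnfrsf10b in 6 (0.0541 to 0.105) and Btg1 in 4 (0.0516 to 0.0682).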

How the results depend on the processing

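No called member changed direction under any alternative run. At a threshold of 0.01 the members called were 9 for Tet1 shRNA 4, 4 for Tet1 shRNA 5, 3 for both and 10 for the Sin3A shRNA. With the fit restricted to the 2 groups of the comparison, 9 were called for Tet1 shRNA 4. There 8.02% of all probe sets passed, against 11.6% in the main fit. With 1 fit of all 15 arrays, 14 were called for Tet1 shRNA 5, 10 for both and 13 for the Sin3A shRNA. In that fit 18.9% of all probe sets passed for Tet1 shRNA 5, against 13.8% in the main fit. For the Sin3A shRNA 22.1% passed, against 24.8%. Between the Tet1 hairpins 1 member, Perp, was called without the dimmest 25% of probe sets and 1, again Perp, with an intensity trend. Leaving out 1 array gave 11 to 13 calls for Tet1 shRNA 4, 6 to 10 for Tet1 shRNA 5, 4 to 7 for both, 11 to 14 for the Sin3A shRNA, 0 to 1 between the hairpins and 15 to 19 for the difference of effects. Over all probe sets 7.84% to 12.4% then passed for Tet1 shRNA 4 and 9.45% to 14.5% for Tet1 shRNA 5. For the Sin3A shRNA 15.8% to 23.3% passed, and for the difference of effects 16.1% to 21.3%.

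With the replicate number as a block, 12 members were called for Tet1 shRNA 4, where Ddit4l and Phlda3 were lost. In the other comparisons the block gave 9 for Tet1 shRNA 5, 6 for both, 13 for the Sin3A shRNA (same-numbered arrays correlated at -0.27 to 0.02), 0 between the hairpins and 17 for the difference of effects. Over all probe sets the block gave 10.8% for Tet1 shRNA 4 and 13.1% for Tet1 shRNA 5. It gave 19.4% for the Sin3A shRNA and 17.6% for the difference of effects. Without both arrays that stood apart, 14, 9 and 6 members were called for Tet1 shRNA 4, Tet1 shRNA 5 and both, and 19 for the difference of effects. Over all probe sets 11.6%, 16.2% and 22.8% then passed for Tet1 shRNA 4, Tet1 shRNA 5 and the difference of effects. Another probe set per gene was not run, since each member had 1. With 3 arrays per group, small differences cannot be told from 0, and tied values in the Tet1 set limit its estimate of the spread.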
